A study of Mus musculus with 2 samples.

Results

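The cells described here were the Ly6c2-expressing classical monocytes of MC38-OVAdim tumours, 330 of the 4521 tumour cells (7.3%) and of the 12458 cells in the whole data set (2.65%). A tumour cell was taken when its deposited natural log value was 1 or more for Ly6c2, above 0 for Lyz2 and Ccr2 and below 2 for C1qa, and 0 for Ace, Cd3e, Cd79a, Ncr1, Siglech and Hilpda. The members were thus chosen by measured values of these 10 genes, whose levels describe the cells and are no result. The cells came from 4 C57Bl6 mice. WT1 and WT2 were controls with Havcr2 fl/fl alleles, and KO1 and KO2 were mice in which Havcr2, the gene of the inhibitory receptor TIM-3, had been targeted. The driver of the deletion, the cell types it acts in and the age of the mice are not stated in the labels. All 4 mice had received MC38-OVAdim cells, a mouse colon carcinoma line carrying an ovalbumin antigen, under the skin of the flank. Tumours were digested with Liberase and DNase, leukocytes were enriched on a Percoll gradient, and CD45+ cells with an enrichment for dendritic cells were sorted. Oligonucleotide-tagged CD45 antibodies marked mouse and tissue, and 5′ 10X libraries were made in 2 droplet channels, the first with WT1 and KO1 and the second with WT2 and KO2. The mice contributed 119, 103, 81 and 27 cells in the order WT1, WT2, KO1, KO2, which is the order of every run of 4 values below.

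Classical monocytes are made in the bone marrow, leave it through the chemokine receptor Ccr2 and enter inflamed tissue and tumours, where they can mature into macrophages or take on features of dendritic cells. In the mouse they are known by high Ly6C, a small membrane-anchored surface protein of which Ly6c2 is the main monocyte gene. Nonclassical monocytes, which carry Ace and need the nuclear receptor Nr4a1, patrol the vessel wall and hold little Ly6C, and mature tissue macrophages make the complement proteins C1qa, C1qb and C1qc.

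The gated cells had a median of 10181 unique molecular identifiers (UMIs, each standing for 1 captured RNA molecule) and 2727.5 genes. The medians per mouse were 10213, 10138, 10051 and 10753 UMIs, with totals of 275513 to 1259911 UMIs, so depth hardly differed between the mice but KO2 rested on the fewest cells. Median mitochondrial shares were 1.38 to 1.47%, and 4 cells had 5% or more. Of all barcodes, 65 occurred in both channels, and 5 gated cells carried one. Levels below are means over cells in UMIs of a gene per 10000 UMIs of the cell.

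The label was checked against markers. Summed over the classical monocyte list, the level was 113, 97.7, 101 and 102, against 11.7, 9.28, 9.45 and 9.32 for the nonclassical list, with Ace at 0 by the gate. Macrophage markers summed to 28.9, 29.8, 31.6 and 28.2, with Apoe among the leading contributors, at 10.9 to 14. Lists of other cell types were low. Neutrophil markers summed to 0.577 to 1.06, conventional type 1 dendritic cell markers to 0.213 to 0.427, type 2 markers to 0.144 to 0.898 and mature dendritic cell markers to 0.123 to 0.244. T cell markers reached at most 0.084, NK cell markers 0.0244, B cell markers 0.138, fibroblast markers 0.114 and tumour cell markers 0.00774, all of it Epcam in WT1 with Krt18 at 0. The plasmacytoid list gave 5.45 to 6.22 from Bst2 alone, an interferon-responsive gene, while Siglech, Ccr9 and Klk1 were at 0. No gene of the mast cell and basophil list or of the erythroid list was measured. Some other lists were incomplete, with 2 of 4 tumour cell, 3 of 4 fibroblast, 5 of 6 T cell and 6 of 8 neutrophil markers measured. Ly6c2 and Ccr2 in the first list, and Ace, C1qa, Cd3e, Cd79a, Ncr1 and Siglech in the others, were set by the gate, so these sums describe it. Of the classical markers that the gate did not use, Plac8 was at 29.8 to 37.8 and Chil3 at 5.27 to 22.8. The lists hold different genes, so their sums alone do not tell classical from nonclassical monocytes. Within the classical list, Plac8 and Ifitm6 were higher and F13a1 lower in the Ace-positive monocytes described below. Ifitm6 was 3.6, 2.58, 3.02 and 1.08 in the gated cells against 5.56, 4.97, 6.86 and 6.27. The Hp means were close, at 3.16 and 3.39.

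Cells near the Ly6c2 and C1qa limits of the gate were few. The limits at 0, where a single UMI decides, took out more. Setting Ace to 0 left 481 of 622 cells, and setting Hilpda to 0 as the last step left 330 of 444. The bearing of these 2 steps on the levels below was not tested. The 14 cells just inside the Ly6c2 limit, within 0.25 on the natural log scale, had 20.8 Plac8 and 10.1 Chil3 UMIs per 10000, and the 18 otherwise matching cells just outside had 18.7 and 5.42, with C1qb at 5.17 inside and 0.192 outside. The 9 cells just inside the C1qa limit had a C1qb level of 31.8, and the 4 cells just outside 33.2, with Chil3 at 1.55 inside and 15.2 outside. Ly6c2 itself ran from 1.01 to 5.08 on the natural log scale with a median of 2.74.

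The gated cells were next set beside all other tumour cells. Among genes with at least 1 UMI per 10000 in the gated cells of every mouse, the 15 of highest log2 ratio of mean levels were Chil3 (3.28), Ly6c2 (3.02), Hp (2.80), Plac8 (2.38), Ly6i (2.16), Ccr2 (2.16), Ifitm6 (1.95), F13a1 (1.88), Mgst1 (1.87), Cfb (1.81), Mcemp1 (1.79), Cxcl10 (1.75), Ms4a4c (1.74), Osm (1.71) and F10 (1.70). Chil3 encodes the chitinase-like protein Ym1, Hp the haemoglobin scavenger haptoglobin, F13a1 and F10 coagulation factors, Cfb a complement factor, Osm the cytokine oncostatin M and Cxcl10 a chemokine for CXCR3-bearing lymphocytes. Ly6c2 and Ccr2 are gate genes, and the ratios have no test, since the gate chose the cells on genes measured in the same cells.

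Against the 1257 C1qa-high tumour macrophages and the 260 Ace-positive tumour monocytes of the same mice, levels were compared with no test. The macrophages had C1qa of 2 or more, Lyz2 above 0 and the same 6 genes at 0, and the Ace-positive monocytes had Ace and Lyz2 above 0 and Cd3e, Cd79a, Ncr1 and Siglech at 0. No limit was set on Ly6c2, Ccr2, C1qa or Hilpda in the Ace-positive cells. Of 622 tumour cells that met the Ly6c2, Lyz2, Ccr2 and C1qa limits of the gate, 481 had Ace at 0. Ace-positive cells with Ly6c2 and Ccr2 were thus not kept out of that class. Chil3 was 22.8, 13.4, 16.2 and 5.27, against 14.7, 14.2, 8.85 and 2.58 in Ace-positive monocytes and 0.0484 to 0.492 in macrophages. Its mean was 42.3 times that of macrophages, and KO2 was lowest of the mice in each of the 3 classes. Hp was 4.46, 2.89, 3.71 and 1.59, a mean 65.1 times that of macrophages, and 3.0 to 3.73 in Ace-positive monocytes. Plac8, a small cysteine-rich protein of myeloid cells, was 34.9, 35.9, 29.8 and 37.8 against 0.604 to 1.94 in macrophages. It was higher still in Ace-positive monocytes, at 53.1, 51.0, 40.1 and 44.5, so Plac8 marks both monocyte classes. Cd177, best known as a neutrophil surface protein, was low but present at 1.0, 0.773, 1.32 and 0.679, a mean 74.1 times that of macrophages. In Ace-positive monocytes it was 0.638, 0.603, 0.728 and 0.664, so it was present in both monocyte classes.

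F13a1 separated the classical from the Ace-positive monocytes in every mouse, at 3.96, 2.65, 3.03 and 2.7 against 1.1, 0.544, 1.33 and 0.981. The nonclassical programme ran the other way. Nr4a1 was 6.58, 4.42, 4.73 and 4.16 against 13.4, 12.6, 11.1 and 13.4. Klf2, a transcription factor of circulating leukocytes, was 2.76, 1.64, 3.05 and 3.96 against 10.1, 9.22, 11.6 and 17.4. The integrin gene Itgal had means of 0.817 and 2.94 in the 2 classes. Cfb was 2.69, 2.8, 3.35 and 3.91 in the classical cells and 0.501 to 0.839 in the Ace-positive ones.

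**Figure D1:**
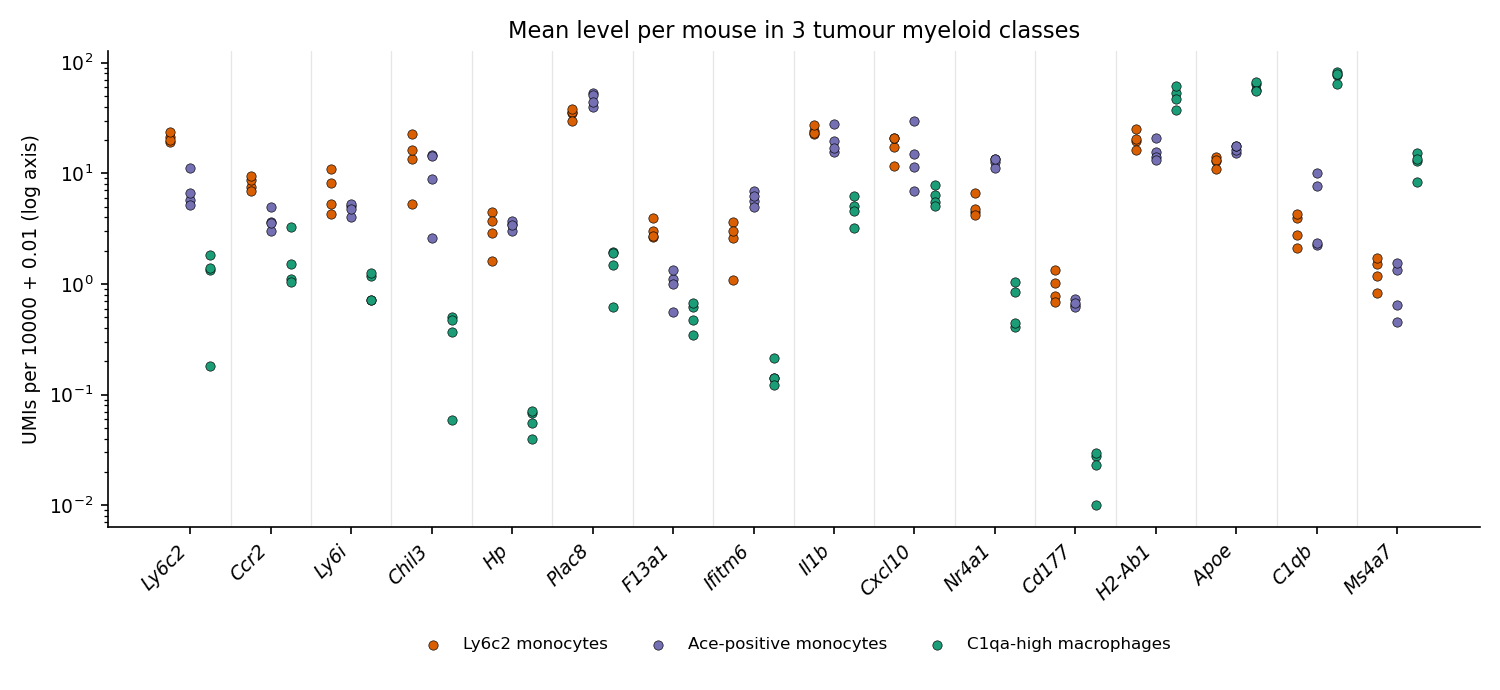
Mean UMIs per 10000 (log axis, 0.01 added) of selected genes in classical monocytes, Ace-positive monocytes and C1qa-high macrophages, 1 point per mouse. The Chil3 points of classical monocytes lie between 5.27 and 22.8 and those of macrophages at 0.492 or below.

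Inflammatory transcripts were compared in the same way. Il1b, the precursor of interleukin 1 beta, was 22.8, 24, 23.2 and 27.2, a mean 5.09 times that of macrophages, and 15.6 to 27.7 in Ace-positive monocytes. Of the inflammasome genes that act on it, Pycard was 3.79, 4.39, 3.1 and 4.15, Casp1 1.29, 1.11, 1.32 and 1.06, and Nlrp3 0.69, 0.619, 0.867 and 0.933. Il18, whose product is cut by the same protease, was at 0.185 or below in every mouse. Cxcl10 was 17.2, 11.7, 21 and 20.8, 2.85 times the macrophage mean but 1.12 times that of Ace-positive monocytes. Cxcl9, its partner at CXCR3, was 7.88, 8.64, 9.93 and 9.36, a mean of 8.95 against 10.2 in macrophages. The T cell chemokine Ccl5 was 10.2, 9.06, 15.5 and 26.5, and the monocyte attractant Ccl2 8.04, 6.22, 6.2 and 7.22, with a mean of 6.92 against 6.63 in macrophages.

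Arginine-using enzymes were unequal. Nos2 was 0.463, 0.367, 0.659 and 0.28. Arg1 was 7.09, 15.2, 6.63 and 13.7, close to the macrophage values of 8.07, 22.9, 7.21 and 12.4 and far above the 0.172 to 1.69 of Ace-positive monocytes. In both classes the Arg1 level was higher in the mice of the second channel, WT2 and KO2, than in WT1 and KO1. The checkpoint ligand gene Cd274 was 0.82, 1.27, 1.26 and 1.36. Of the class II genes, H2-Ab1 was present below the macrophage level, at 19.6, 16.1, 25.0 and 20.5 against 53.2, 37.1, 62.2 and 47.0, and Cd74, the invariant chain, was 125, 91.5, 142 and 129. The class I gene H2-D1 was above macrophages in every mouse, with means of 37.1 and 28.2, and higher still in Ace-positive monocytes, at 44.7. Other class I genes varied. H2-T22, H2-T23 and H2-Q4 were also above macrophages in every mouse. H2-K1 (means 22.5 and 23.8) and B2m (26.4 and 26.6) were not.

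Among the regulators, Spi1, which encodes the myeloid factor PU.1, was 8.45, 8.62, 8.23 and 8.42, and Irf8 4.37, 4.7, 4.77 and 3.68. Both levels differed little between mice. The receptors Fcgr1 (6.53 to 7.39) and Cx3cr1 (0.917 to 1.09) and the oxidase gene Cybb (4.84 to 6.51) also lay in narrow bands, and the matrix gene Vcan ran from 0.215 to 0.504. Cells in division were scarce, with a Mki67 mean of 0.0199 against 0.475 in macrophages and a Top2a mean of 0.0493 against 0.649.

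Within the gated cells, Ly6c2 level ran together with a type I interferon programme. Type I interferons act through the receptor of Ifnar1 and Ifnar2 and a STAT complex with IRF9, which binds promoter elements built on repeats of GAAA. The cells were split at the median Ly6c2 value into 165 Ly6c2-high and 165 Ly6c2-low cells, with 65 and 54, 47 and 56, 38 and 43, and 15 and 12 cells in the 4 mice, and median depths of 10277 and 10047 UMIs. Of 21 type I interferon genes with a level of at least 1, 19 were higher in the Ly6c2-high cells in every mouse and 0 were lower in every mouse, with a median log2 ratio of 0.64. Over all 1411 genes, 12.1% were higher in every mouse and 12.9% lower, with a median of 0.01. The other two, Ifit1 and Ly6a, were mixed. Ratios are of mean levels with 0.1 added, and the counts are a description with no test, since Ly6c2 is a gate gene.

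Isg15, a ubiquitin-like protein and classical interferon product, was 18.0 in Ly6c2-high and 12.8 in Ly6c2-low cells of WT1, 14.6 and 7.17 in WT2, 15.8 and 9.39 in KO1, and 23.7 and 7.85 in KO2. The high cells were above the low cells by a mean log2 ratio of 0.96. Ifit3, an RNA-binding antiviral protein, was 3.73 and 2.09, 1.37 and 0.43, 2.43 and 1.52, and 2.95 and 0.56, a mean log2 ratio of 1.28. Irf7, the factor that amplifies the interferon loop, was 10.2 and 6.7, 7.21 and 3.58, 10.2 and 6.95, and 10.2 and 5.78. Its Ly6c2-low values did not reach the Ly6c2-high value of any mouse. Cxcl10 was 21.9 and 11.6, 13.9 and 9.9, 23.3 and 18.9, and 25.8 and 14.5, and Plac8 40.5 and 28.2, 41.2 and 31.5, 37.2 and 23.3, and 48.5 and 24.4.

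The start-site regions of 4 of these genes are shown to let the Ly6c2 window be read beside 3 interferon targets. Each runs 5′ to 3′ along the gene from 250 bases before to 50 after its start, as given by RefSeq for GRCm38.p6. Capitals mark matches to GAAANNGAAA, searched on both strands with overlaps allowed. The windows are Ly6c2 at chr15:75111922-75112221 (minus strand), Isg15 at chr4:156200769-156201068 (minus strand), Ifit3 at chr19:34583279-34583578 (plus strand) and Cxcl10 at chr5:92348840-92349139 (minus strand).
Ly6c2: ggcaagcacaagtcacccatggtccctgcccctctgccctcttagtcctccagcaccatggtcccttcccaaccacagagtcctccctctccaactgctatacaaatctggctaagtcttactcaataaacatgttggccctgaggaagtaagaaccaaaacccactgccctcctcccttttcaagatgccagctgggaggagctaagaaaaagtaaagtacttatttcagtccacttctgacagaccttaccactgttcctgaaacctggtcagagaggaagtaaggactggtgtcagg
Isg15: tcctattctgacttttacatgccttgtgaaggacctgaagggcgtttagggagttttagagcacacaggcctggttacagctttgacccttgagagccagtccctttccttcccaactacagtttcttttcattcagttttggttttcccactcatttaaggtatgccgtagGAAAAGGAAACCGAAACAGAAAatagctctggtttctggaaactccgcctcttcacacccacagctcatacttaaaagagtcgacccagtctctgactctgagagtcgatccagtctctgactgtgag
Ifit3: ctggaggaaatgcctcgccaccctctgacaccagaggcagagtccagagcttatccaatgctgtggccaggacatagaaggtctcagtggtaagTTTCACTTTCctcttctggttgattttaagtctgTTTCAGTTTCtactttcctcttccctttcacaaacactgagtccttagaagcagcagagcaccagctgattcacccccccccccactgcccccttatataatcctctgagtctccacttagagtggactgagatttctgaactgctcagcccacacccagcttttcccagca
Cxcl10: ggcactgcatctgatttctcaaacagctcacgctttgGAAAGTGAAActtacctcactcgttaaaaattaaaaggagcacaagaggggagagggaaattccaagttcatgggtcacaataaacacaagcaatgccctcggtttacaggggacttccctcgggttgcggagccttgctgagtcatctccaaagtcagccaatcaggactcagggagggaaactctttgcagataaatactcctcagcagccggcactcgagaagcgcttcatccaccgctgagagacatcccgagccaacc
Isg15 held 3 overlapping matches, Ifit3 2 on the opposite strand, Cxcl10 1, and the Ly6c2 window 0. Of all 32851 promoters of this length, 3.44% held a match. Promoters of 24 genes of the type I list were found by symbol and 12 of them (50.0%) held a match, as did 7 of the 14 found among the 19 genes above (50.0%), against 80 of 1087 genes measured in the split (7.36%). A match describes letters and is no measured binding.

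Other groups gave smaller counts, to be read beside 12.1% higher and 12.9% lower in every mouse over all genes of this split. Of 17 class I presentation genes, 10 were higher in every mouse and 1, Pdia3, was lower. Of 17 interferon gamma genes, 5 were higher (Cxcl10, Gbp5, Irgm1, Ifi47 and Tgtp2), while Cxcl9 was mixed, at 8.93 and 6.61 in WT1 but 8.52 and 11.2 in KO1. Of 8 trafficking genes, 4 were higher, among them Cd44, Icam1 and the gate gene Ccr2. Of 16 macrophage maturation genes, 0 were higher and 6 were lower, among them C1qb, C1qc, Apoe, Cd9 and Spp1. Spp1, osteopontin, was 2.21 and 3.76, 5.8 and 16.7, 0.856 and 9.52, and 0.498 and 2.31 in high and low cells, a log2 ratio of -1.90. Ccl2 was higher in the Ly6c2-high cells by a wide margin in KO1 (9.7 and 3.11) and KO2 (10.4 and 3.31) and by a narrow one in WT1 (8.16 and 7.9) and WT2 (7.03 and 5.55).

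**Figure D2:**
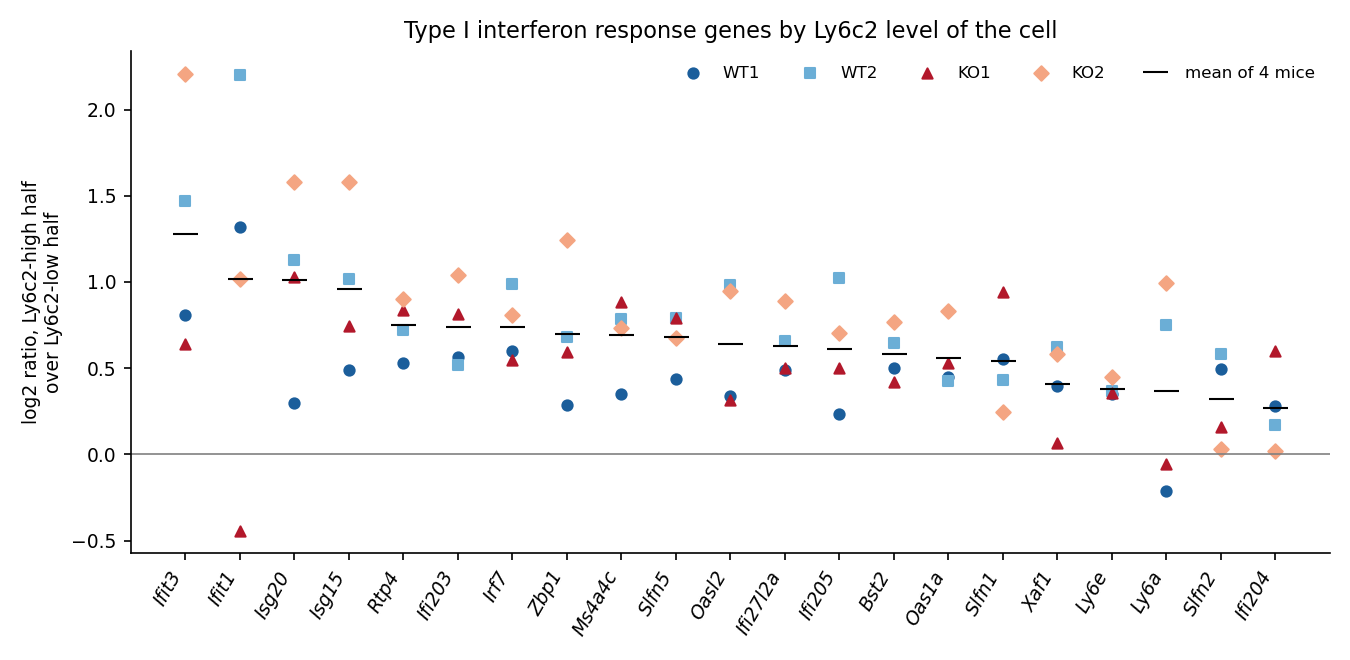
Log2 ratio of mean level in Ly6c2-high over Ly6c2-low gated cells for the type I interferon genes, 1 point per mouse. All 4 points lie above 0 for 19 of 21 genes, and Ifit1 and Ly6a have points on both sides.

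Gated cells were also split by whether they held any C1qa UMI. C1qa was found in 57 gated cells and was 0 in 273, and KO2 was left out because only 3 of its cells had any. The share with a C1qa UMI, 17.3%, was below that of tumour T cells with Cd3e and Cd3d UMIs, which should lack the gene (30.2% of 417 cells, median depth 8807 UMIs). Node B cells had 3.42% at a median depth of 3204 UMIs. C1qb, found in 29.1% of gated cells and 32.1% of those T cells, has the same limit wherever it is given. The gate capped C1qa in the gated cells but not in the T cells, with mean levels of 0.42 and 10.2. These shares are therefore not like for like. Background and expression by monocytes cannot be told apart here, and the values below say only which transcripts came with C1qa. The part of free RNA and of doublets was not tested. Median depths were 10861 and 10117 UMIs. In all 3 mice used, 10 of 16 macrophage maturation genes were higher in the C1qa-positive cells and 0 lower, as were 7 of 8 class II genes and 10 of 17 glycolysis and hypoxia genes. Where a list counts C1qa itself, its direction was fixed by the split. Over all 1454 genes 22.8% were higher in every mouse used and 22.3% lower, so a count has to be read against a wide background. C1qb was 9.03 in positive and 0.465 in negative cells of WT1, 20.7 and 1.34 in WT2, and 17.0 and 0.945 in KO1. Cd74 was 199 and 107, 119 and 87.2, and 220 and 121. Ccl2 was 10.6 and 7.42, 16.7 and 4.58, and 20.5 and 2.4, and Arg1 7.82 and 6.92, 28.7 and 13.1, and 15.2 and 4.36, each higher in positive cells.

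The C1qa-positive cells were lower in monocyte products. Of 14 secretory genes, 7 were lower in all 3 mice (Lyz2, Hp, Plac8, S100a4, F13a1, Thbs1 and Wfdc17), and of 10 trafficking genes 5 were lower, among them Selplg, Itga4, Itgb1 and Cd44. Hp was 2.62 and 4.9, 0.639 and 3.25, and 0.977 and 4.44, a log2 ratio of -1.71. Interferon gamma genes went the same way, with 12 of 16 lower and 0 higher. Cxcl9 was 7.44 and 7.99, 3.14 and 9.51, and 4.71 and 11.3. Rsad2, the antiviral protein viperin, had a log2 ratio of -1.83.

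Chil3 gave one more split, chosen after the values had been seen. Chil3 was found in 221 gated cells (67.0%) and not in 109, in all 4 mice, against 6.47% of those tumour T cells and 0.311% of node B cells, with median depths of 9962 and 10861 UMIs. Of 14 secretory genes 10 were higher in the Chil3-positive cells of every mouse and 0 lower, as were 8 of 13 transcription factors and 8 of 17 interferon gamma genes. Chil3 is itself a member of the secretory list, and its own direction was fixed by the split. The glycolysis and hypoxia list had 8 of 17 lower. Over all 1397 genes 15.8% were higher in every mouse and 10.1% lower. Hp was 5.7 and 1.08, 3.59 and 1.47, 5.4 and 1.12, and 2.0 and 1.01. Slpi, a protease inhibitor, and Thbs1, thrombospondin, both had a log2 ratio of 1.45, and Klf4, a monocyte factor, 0.86.

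Of 8 class II genes 2, Cd74 and Ifi30, were lower in the Chil3-positive cells of every mouse. Cd74 was 84.4 in positive and 236 in negative cells of WT1, 68.3 and 139 in WT2, 79.5 and 237 in KO1, and 126 and 134 in KO2, where the gap was small. H2-Ab1 was lower in the Chil3-positive cells of WT1, WT2 and KO1 but not KO2, at 21.9 and 18.4. Spp1 had a log2 ratio of -2.45 and C1qb of -1.52. The small interferon-induced membrane protein Ifitm1 was 7.56 and 16.9, 3.46 and 7.14, 10.3 and 13.1, and 5.74 and 13.7, and the integrin gene Itgax had a log2 ratio of -0.85.

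**Figure D3:**
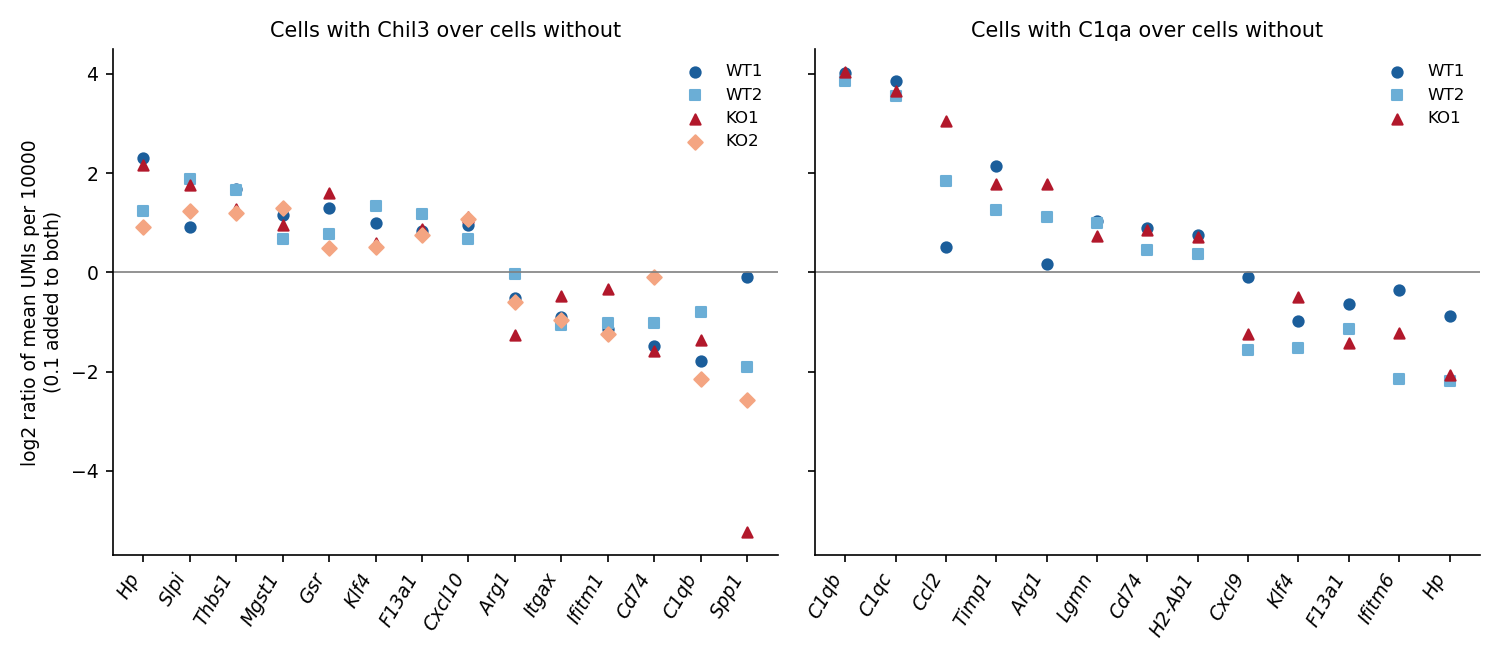
Log2 ratio of mean UMIs per 10000 (0.1 added to both) between gated cells with and without C1qa and with and without Chil3, 1 point per mouse. Hp lies below 0 for C1qa (mean -1.71) and above 0 for Chil3 (mean 1.66).

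The same gate found few cells in lymph nodes, 26 in the tumour-draining nodes (5 to 8 per mouse) and 10 in the non-draining nodes (1 to 4 per mouse). This is under the 20 cells per mouse set for a test, so pooled values are given with exact 95% Poisson intervals, which cover counting error only. Median depths were alike, at 10181, 10159.5 and 9449 UMIs in tumour, draining and non-draining node. Ly6c2 was 20.1 in tumour, 12.1 (10.8 to 13.5) in draining and 15.9 (13.5 to 18.7) in non-draining nodes, and Plac8 30.4, 21.4 and 27.5.

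Several transcripts were high in the tumour cells of the gate and low or not detected in its node cells. Arg1 was 11.7 in tumour with 0 UMIs in either node, where 3 counts would be a level of 0.114 in draining and 0.321 in non-draining nodes. C1qb, 4.2 in tumour, likewise had 0 UMIs in both. Cxcl10 was 16.2 (15.7 to 16.6) against 0.494 (0.263 to 0.844) and 2.68, and Isg15 13.3 against 2.16 and 5.57. Ccl2 was 6.94 in tumour with 4 UMIs in all in draining nodes. Chil3 was 14.6, 4.94 and 0.107, the last from 1 UMI. Class II genes went the other way, with Cd74 at 129, 277 and 225 and H2-Ab1 at 22.5, 47.0 and 42.6. Node cells of the gate may include other Lyz2-positive types, which was not tested.

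The targeted gene was then read in every mouse. Havcr2 (chr11:46454935-46481255, plus strand, GRCm38, GENCODE M21) was 1.06 and 1.52 in WT1 and WT2 and 0.864 and 0.877 in KO1 and KO2, and the groups did not overlap. The KO mean was 67.5% of the WT mean. The log2 difference of -0.26 (SE 0.10) did not pass the test, with an adjusted p of 0.920 by limma, and was -0.13 without WT2. Havcr2 UMIs were found in 49.6, 63.1, 33.3 and 44.4% of the gated cells. Of 2250 node B cells, which should lack the gene and shared the droplet channels, 6 had one (0.267%, median depth 3204 UMIs against 10181). The shares in KO monocytes were above that of the node B cells. For C1qa, however, node B cells had 3.42% and tumour T cells 30.2%, so node B cells may understate the background of tumour cells.

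In C1qa-high macrophages of the same mice Havcr2 was 0.662, 0.546, 0.0849 and 0.0342, a KO mean 9.86% of the WT mean, and in Ace-positive monocytes 1.17, 1.02, 0.689 and 0.608 (59.1%). Over all other tumour cells the figure was 22.2%. The difference between monocytes and macrophages in the genotype effect was 0.24 on the same compressed log2 scale (SE 0.14). It did not pass, with a limma adjusted p of 0.954. It was 0.06 without WT1 and 0.42 without WT2. Where the deleted part of the gene lies relative to the 5′ reads is not given, so whether these UMIs came from an intact transcript was not tested. Itgax, which encodes CD11c, was 0.696, 0.687, 1.39 and 1.27 in the gated cells, 0.383, 0.402, 1.39 and 1.82 in Ace-positive monocytes and 1.24, 0.875, 1.52 and 1.68 in macrophages, above in both KO mice in each class. Lgals9, the gene of a reported TIM-3 ligand, was 4.52, 3.18, 3.49 and 2.95.

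**Figure D4:**
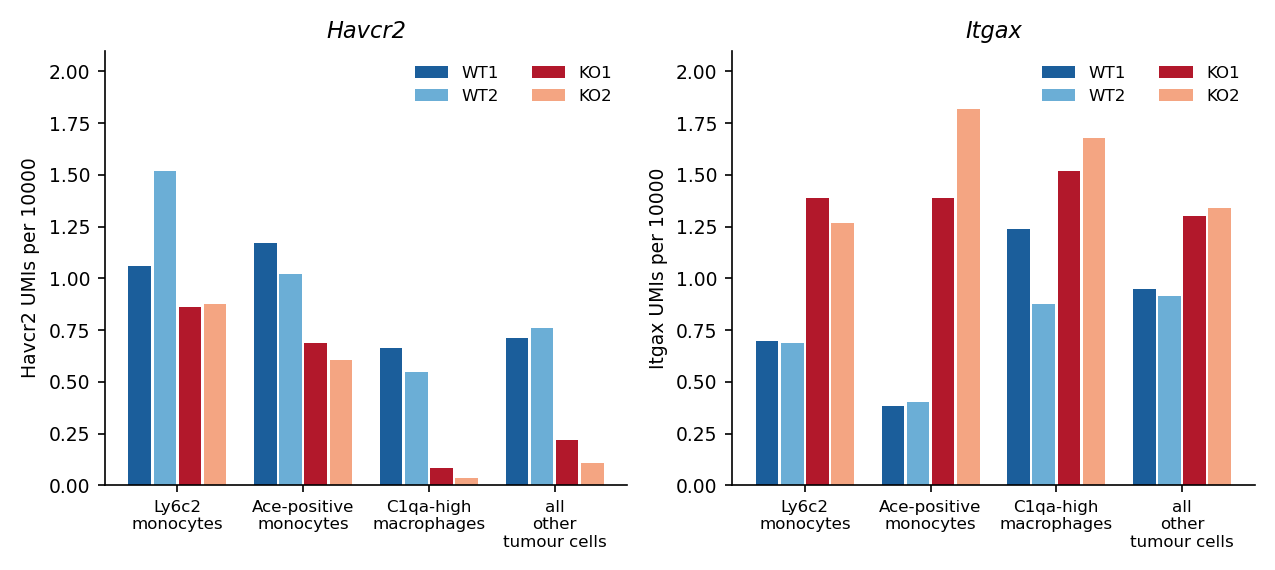
Havcr2 and Itgax UMIs per 10000 in 4 groups of tumour cells, 1 bar per mouse. KO bars of Havcr2 are near 0 in macrophages (0.0849 and 0.0342) but at 0.864 and 0.877 in classical monocytes.

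The share of sorted tumour cells inside the gate was 7.04% (exact 95% binomial interval 5.86 to 8.36) in WT1, 10.3% (8.46 to 12.3) in WT2, 5.98% (4.78 to 7.38) in KO1 and 5.71% (3.8 to 8.2) in KO2. The intervals cover counting error only. The groups did not overlap, with means of 8.65% ± 2.29 in WT and 5.85% ± 0.194 in KO (SD, n = 2). The exact two-sided permutation test gave p = 0.333 for the difference of -2.81 percentage points, the smallest p that 2 mice against 2 allow. Without WT2 the difference was -1.19 points and without WT1 -4.42. Because dendritic cells were enriched in the sort, this is no share of the tumour.

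Next, KO and WT monocytes were compared gene by gene, with the mouse as replicate. The test used the mean over cells of log2(1 + UMIs per 10000) per mouse, for 8128 genes with a UMI in at least 5% of the gated cells. Differences and overlap between groups below are on that scale, which compresses low levels. No gene passed an adjusted p of 0.05 by limma (0.0% called, lowest adjusted p 0.297), while 410 had an unadjusted p under 0.05. With the droplet channel as a block 8 genes passed (0.0984%), 7 higher and 1 lower in KO, and limma-voom on summed UMIs called 14 (0.172%), 13 higher and 1 lower. Both called 5 of them, Fth1, AW112010, Selm, Rsrp1 and Ly6i. Both KO mice were above both WT mice for 17.8% of all genes and below for 17.4%.

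Fth1, the ferritin heavy chain that stores iron, was 146, 111, 176 and 178, a log2 difference of 0.43 (SE 0.08; limma adjusted p 0.297, 0.0337 with the block, 0.0218 by voom), and 0.28 without WT2. AW112010, an interferon-inducible transcript of immune cells, was 10.3, 10.8, 16.3 and 16.3, a log2 difference of 0.68 (limma adjusted p 0.297, 0.0466 with the block, 0.0417 by voom). Selm, a selenoprotein, was 0.506, 0.48, 1.27 and 1.95, and Rsrp1 2.59, 2.13, 4.77 and 3.89. Within each of these 4 genes both KO mice were above both WT mice.

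Ly6i was 5.32, 4.26, 8.22 and 10.9, a log2 difference of 0.77 (SE 0.19), with limma adjusted p of 0.677, 0.0466 with the block and 0.0197 by voom. Without KO2, the mouse of 27 cells, the difference was 0.36 (limma adjusted p 0.443), and without KO1 1.18. In macrophages it was 1.17, 0.699, 1.25 and 0.707. Ly6i (chr15:74979534-74983430) lies 125 kb from Ly6c2 (chr15:75108158-75111970) in a cluster of related genes with Ly6a and Ly6c1. Reads shared by such genes may have been misassigned or lost, so the value is uncertain. Ly6c2, the gate gene, was 21.4, 19.0, 19.9 and 23.7, and Ly6a 19.1, 17.0, 23.7 and 33.4, past the threshold by voom (adjusted p 0.0274) but not with the block (0.431).

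Ifitm1 was 10.1, 4.67, 11.4 and 8.99 as a mean level, in which the groups overlapped, and was found in 51.3, 47.6, 60.5 and 74.1% of cells. On the scale of the test the log2 difference was 0.74 (SE 0.14), with limma adjusted p of 0.297, 0.030 with the block and 0.817 by voom. Chil3 was the gene called lower with the block. It was found in 73.1, 67.0, 60.5 and 59.3% of cells, a log2 difference of -0.82 (SE 0.23; limma adjusted p 0.853, 0.0151 with the block, 0.530 by voom), while its mean levels overlapped, as KO1 at 16.2 was above WT2 at 13.4. The Chil3 difference was -0.39 without KO2, -0.50 without WT1 and -1.25 without KO1. Ifitm1 and Itgax were lower, and Chil3 present by definition, in the same Chil3-positive cells described above, and the part that this mix plays in the genotype values was not tested.

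The eighth block gene was 2310031A07Rik, at 0.0669, 0.0367, 0.317 and 0.703, found in 6.72, 2.91, 22.2 and 40.7% of cells. On the scale of the test, which compresses such low levels, its log2 difference was 0.37 (limma adjusted p 0.305, 0.0337 with the block). Without KO2 the difference on that scale was 0.22. By voom the gene had a log2 difference of 2.92 (adjusted p 0.0589). It lies at chr11:46440362-46447248 on the minus strand, 7.69 kb from Havcr2 on the plus strand. In macrophages it was 0.054, 0.0519, 0.331 and 0.304 and in Ace-positive monocytes 0.0616, 0.0133, 0.111 and 0.0891, so it was above in both KO mice in each of the 3 classes. The part of the targeted locus in this value was not tested.

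The genes of smallest p outside these calls were, in the higher direction, Dusp1, a phosphatase that turns off MAP kinases, at 15.3, 16.2, 21.3 and 22.9, Il18bp, a secreted decoy for interleukin 18, at 0.929, 0.938, 1.69 and 1.93, and Itgax. Their limma adjusted p was 0.305 each, and by voom Il18bp had 0.0264 and Itgax 0.0197. In the lower direction, Fn1, fibronectin, was 8.86, 9.53, 5.6 and 6.11, a log2 difference of -0.59 (limma adjusted p 0.305, by voom 0.0208, with the block 0.084). The chemokine Ccl6 was 11.2, 11.6, 9.84 and 5.01 (limma adjusted p 0.814). Idh3a, Tcp1, H2afy, Spag9 and Zfp36l1 followed, each with a limma adjusted p of 0.920. Also called by voom alone were Rgs1, a brake on chemokine receptors, at 2.17, 1.82, 4.54 and 3.61 (adjusted p 0.000884), Ccl5 (0.0193), Pla2g7, Cxcl2 and Sgk1.

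**Figure D5:**
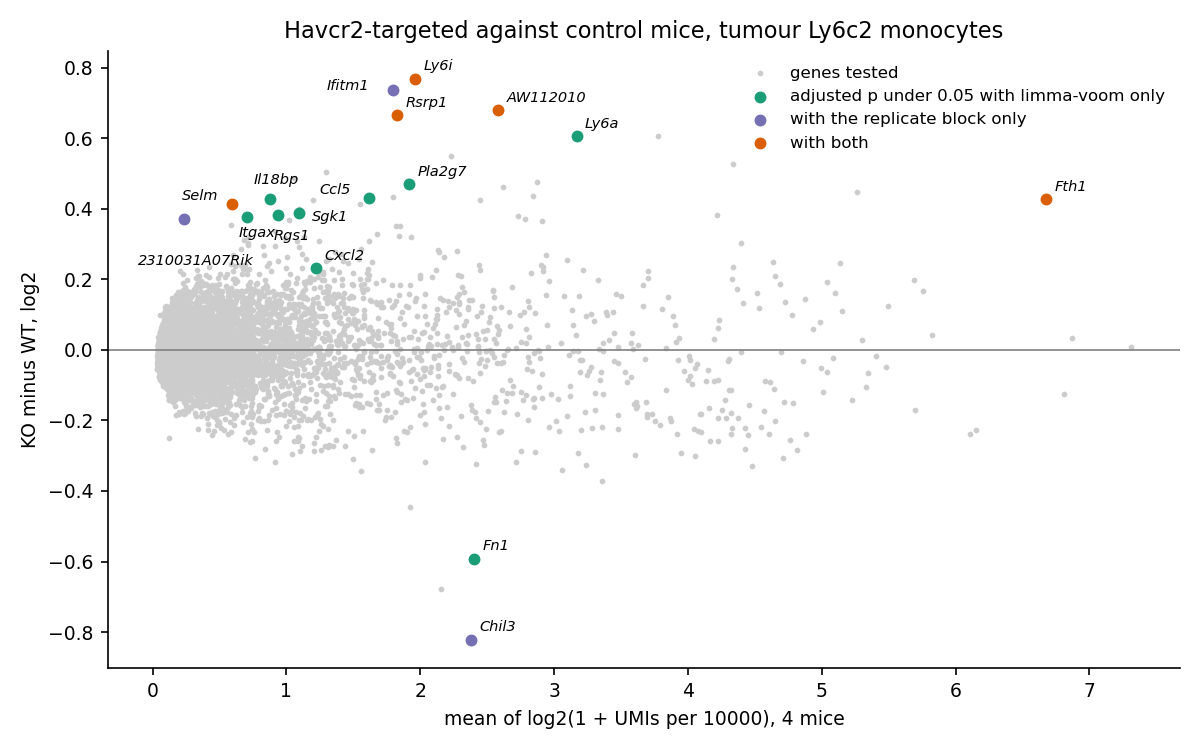
KO minus WT difference in mean log2(1 + UMIs per 10000) per gene against mean level over the 4 mice, 1 point per gene. Coloured points passed an adjusted p of 0.05 with limma-voom, with the replicate block or with both; Chil3 lies at -0.82, Fn1 at -0.59 and Ly6i at 0.77.

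Gene groups are given as counts with their median log2 difference, beside all genes. Over all genes, 17.8% had both KO mice above both WT mice and 17.4% had both below, with a median of 0.001. No member of any list passed by limma, and the block called Chil3 and Fth1 among them. Of 25 interferon gamma genes, 21 had a difference above 0 and 12 (48.0%) had both KO mice above both WT mice, with a median of 0.119. Irf1, for example, was 4.78, 4.97, 6.06 and 5.76 and Gbp4 1.22, 1.4, 1.57 and 2.0 (adjusted p 0.920 by limma for both). Of 22 class I presentation genes 11 (50.0%) had both KO mice above and 0 below, with a median of 0.146. H2-K1 was 21.8, 19.4, 25.4 and 23.4, while the peptide transporter Tap1 overlapped at 4.11, 4.56, 4.12 and 4.3. Of 12 class II genes 4 had both KO mice above and 0 below (median 0.116), among them Cd74 and H2-Ab1. Cd74 was also higher in the Chil3-negative cells of every mouse, by a small gap in KO2, and the share of such cells was larger in both KO mice. The part that this mix plays in the class II values was not tested.

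Type I interferon genes had 10 of 33 above in both KO mice and 2 below, with a median of 0.043. Secretory genes leaned the other way, with 0 of 18 above in both KO mice and 8 below (median -0.128), beside 17.4% of all genes below. S100a4 was 2.68, 3.16, 2.36 and 2.1 and Slpi 3.15, 2.73, 2.77 and 2.16. Of 13 mitochondrially encoded genes 0 were above in both KO mice and 5 below (median -0.065). The inflammasome list had 6 of 23 above and 2 below, with a median of 0.042. Nlrp3 was 0.69, 0.619, 0.867 and 0.933 (log2 difference 0.19, SE 0.08, limma adjusted p 0.920), and Casp1 and Pycard overlapped between genotypes. Il1b was 22.8, 24, 23.2 and 27.2 and also overlapped.

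The remaining lists had no called member by limma either. Their counts are to be read beside 17.8% above and 17.4% below over all genes, and several lie near or under those shares. Both KO mice were above and below, respectively, for 5 and 3 of 14 chemokines, 7 and 3 of 24 macrophage maturation genes, 3 and 1 of 17 trafficking genes, 2 and 2 of 19 transcription factors, 2 and 2 of 20 cytokine and NF-kB genes, and 2 and 3 of 22 glycolysis and hypoxia genes. They were 4 and 1 of 18 arginine and suppression genes, 7 and 1 of 20 antioxidant and iron genes, 6 and 2 of 23 pattern and Fc receptors, and 7 and 3 of 21 immediate early and heat shock genes. The small lists had 1 and 4 of 10 dendritic cell genes, 2 and 0 of 7 oxidase subunits, 2 and 2 of 7 proliferation genes, 3 and 0 of 10 matrix proteases, and 1 and 1 of 5 genes of TIM-3 and its ligands. Of the sex-linked list only Xist was tested, with 0 in either direction.

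Whether the genotype difference in monocytes differed from that in macrophages was tested within mouse for 9624 genes. No gene passed by limma (0.0% called, lowest adjusted p 0.890), 445 had an unadjusted p under 0.05, and 0 passed with the channel as a block. The smallest p belonged to Ifitm1, whose monocyte minus macrophage value was -0.35, -0.26, 0.35 and 0.39 in the 4 mice, an interaction of 0.68 on the log2 scale (SE 0.05, limma adjusted p 0.890). Next in the higher direction were Sgk1 (0.44), Ifnar1 (0.27), the interferon receptor chain, and Calr, Pa2g4, Ddx39b, Ndufab1 and Lsm8. In the lower direction stood Trafd1 (-0.29), Stard3nl, Hivep3, Adipor1, Pfkp, Gyg, Pold4 and Hacd2. For Ly6i the interaction was 0.78 (SE 0.38, limma adjusted p 0.954).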

How the data were processed

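Single-cell 5′ RNA sequencing was done on tumour, draining and non-draining node of 4 mice, giving 12 mouse and tissue samples in 2 droplet channels. Cell Ranger 3.0.2 and mm10 are named per the submitters' processing notes; tag assignment, cell filters and doublet removal are not stated there. The values the authors deposited were natural log values, ln(1 + 10000 × gene UMIs / cell UMIs), of 12638 genes. Back-transformed values were whole multiples of 1 UMI in 100% of cases within 0.01, so UMIs were recovered. No doublet caller was run.

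The members and gene lists were chosen with earlier results of these data known. Mice were compared with limma 3.58.1 (trend) in R 4.3.3 on the per-mouse mean of log2(1 + UMIs per 10000), with Benjamini-Hochberg adjustment over all genes tested and 2 residual degrees of freedom. Shares used scipy 1.17.1. The script was tested on simulated data. Equal-numbered mice shared a channel, per the labels; the deviations of WT1 and KO1 from their genotype means correlated with r = 0.093 over 8128 genes. Named genes were Havcr2, a fixed list of monocyte genes, the 8 genes of smallest p in each direction above the median level, the 15 leading genes against other tumour cells, and genes called with the block or by voom. Examples from the lists and splits were chosen after their values were seen. Alternatives changed the detection filter, scale, model, gate, doubtful cells, replicates, spread and block. Gene positions are from GENCODE M21. Some items of the fixed lists are not reported here.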

Additional observations from a re-analysis of the deposited data

How the results depend on the processing

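For KO against WT, 0 genes were called, as under a 10% or no detection filter, the log2 of the mean, Ly6c2 of 2 or more, a spread shared with macrophages, and without cells of high mitochondrial share or highest UMIs. With C1qa at 0 there was 1 call (AW112010), with limma-voom 14, and with the replicate block, which pairs mice of 1 channel, 8. Leaving out 1 mouse gave 0 (without WT2) to 455 calls (without KO1, which leaves the 27 cells of KO2, assumed to vary like the WT mice), with 2 without WT1 and 10 without KO2. All 8 block genes were among those called without KO1 and 5 among those without KO2. The cause was not tested. For the genotype difference against macrophages, 0 genes were called under every alternative run, the replicate block included. The share difference of -2.81 points kept its sign, from -4.42 (without WT1) to -1.19 (without WT2) on leaving out 1 mouse and from -3.22 to -1.9 otherwise. Of single named genes over these alternatives, 51 values newly passed the threshold, 497 kept their side and 0 reversed. The count of 19 of 21 type I genes was 16 with each mouse cut at its own median Ly6c2 and 18 of 23 in cells with C1qa at 0, both chosen after seeing the data. The alternatives for tumour against draining node were not run, since too few node cells passed the gate. With 27 cells in KO2, depth limits low genes most there.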
